A study of Mus musculus with 16 samples.

Results

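The immediate early genes examined here are *Fos*, *Fosb*, *Jun*, *Junb*, *Egr1*, *Ier2*, *Ier3*, *Btg2*, *Dusp1* and *Klf6*, 10 of the 17003 genes in the expression table. They were taken by gene symbol, as genes known to respond to growth factors and stress without new protein synthesis, with no threshold on their values, although earlier results of these data were known when the list was made. Liver polyA RNA was sequenced from 8 *Fgl1* WT and 8 *Fgl1* LKO male mice, all fed and 8 weeks old. LKO mice carried floxed *Fgl1*, the gene of a fibrinogen-like protein secreted by hepatocytes, with Cre recombinase driven by the albumin promoter, which acts in hepatocytes. WT mice were littermates with the same floxed alleles and no Cre, so the groups differed in Cre as well as in *Fgl1*. Each library came from 1 mouse and is named here by its genotype and its number in the labels, as WT 1 to WT 8 and LKO 1 to LKO 8. The comparison asked whether loss of *Fgl1* from hepatocytes shifted the immediate early genes, and the 16 livers also showed how far these genes varied between mice of 1 genotype.

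Immediate early genes are switched on within minutes of a stimulus by transcription factors already present in the cell. Signals through MAP kinases reach the serum response factor and its partners, which bind CArG boxes, while cyclic AMP and calcium reach CREB, which binds the cyclic AMP response element. The transcripts decay quickly, so a single liver sample captures a short window. In the liver the same genes are well known to respond to partial hepatectomy, to hormones and to inflammation.

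The 2 element types were searched for in the 500 bases before the annotated start of 12436 tested genes that matched the annotation of the mouse genome, build GRCm39. By letter match, a CArG box was found upstream of 2 of the 10 members, *Fos* and *Fosb*, and upstream of 2.57% of all 12436 genes. *Egr1* had no match to either element in this search, which does not show that the gene lacks them. The cyclic AMP response element, TGACGTCA on either strand, was found for *Ier2*, *Btg2* and *Dusp1* and for 2.34% of all genes. These 5 stretches of 60 bases are shown because they carry the elements through which such genes are known to be switched on, written 5′ to 3′ on the strand of the gene with the element in capitals.
Fos: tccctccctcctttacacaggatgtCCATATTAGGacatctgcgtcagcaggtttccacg
Fosb: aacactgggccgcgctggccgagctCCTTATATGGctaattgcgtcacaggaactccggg
Ier2: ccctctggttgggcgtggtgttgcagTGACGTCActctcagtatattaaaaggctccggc
Btg2: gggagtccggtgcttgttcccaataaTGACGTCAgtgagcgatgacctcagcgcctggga
Dusp1: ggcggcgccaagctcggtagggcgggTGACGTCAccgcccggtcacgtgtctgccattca
The *Fos* stretch lies on the forward strand at chr12:85520330-85520389, with its CArG box 303 to 294 bases before the start. The *Fosb* stretch lies on the reverse strand at chr7:19044208-19044267, with the box 266 to 257 bases before the start. The response elements lie 43 to 36 bases before the start of *Ier2* (chr8:85389493-85389552, reverse strand), 201 to 194 bases before that of *Btg2* (chr1:134007026-134007085, reverse strand) and 96 to 89 bases before that of *Dusp1* (chr17:26727556-26727615, reverse strand). All 5 lie upstream of the first exon of the canonical transcript. The *Fos*, *Fosb* and *Ier2* stretches overlap no annotated gene. The *Btg2* and *Dusp1* stretches fall in an intron of a longer annotated model of the same gene and also in a lncRNA gene of the opposite strand, *Gm31974* for *Btg2* (intron) and *Gm56886* for *Dusp1* (exon).

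Other motifs were searched for in the same windows. The AP-1 site TGANTCA, which FOS and JUN proteins bind as dimers, was found upstream of 1 member, *Fos*, and of 10.3% of all genes. The EGR site GCGNGGGCG, bound by EGR1, was found upstream of 3 members (*Fosb*, *Jun* and *Btg2*) and of 7.32% of all genes. The TATA box TATAAA was found upstream of *Fos* and *Junb* and of 17.7% of all genes, searched, like the others, on both strands and anywhere in the 500 bases. These are letter matches and were not tested as binding sites in these livers.

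The members are compact genes. Their canonical transcripts have 1 to 4 exons, against a median of 9 over all matched genes, and span 1248 to 8913 bases of the genome, against a median of 21852, with all 10 members below that median. The ATTTA pentamer, a letter pattern common in short-lived transcripts, occurred at a median of 2.75 per kilobase in the 3′ UTR of the members and at 1.37 in the 11943 genes with a 3′ UTR of at least 100 bases. *Ier3* had the highest density among the members, 8.16 per kilobase, and *Ier2* had none. The transcripts lie at chr12:85520658-85524047 (*Fos*), chr7:19036621-19043976 (*Fosb*), chr4:94937271-94940459 (*Jun*), chr8:85703539-85705347 (*Junb*), chr18:34992876-34998049 (*Egr1*), chr8:85387960-85389483 (*Ier2*), chr17:36132568-36133815 (*Ier3*), chr1:134002908-134006858 (*Btg2*), chr17:26724564-26727493 (*Dusp1*) and chr13:5911481-5920393 (*Klf6*).

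Levels are given in FPKM, fragments scaled to transcript length and to the size of the library, as the authors deposited them, and so can be set side by side between genes. The files give no read totals, and precision rests on the spread between mice alone. Summed FPKM ran from 673153 to 786188 in WT and from 695123 to 738174 in LKO, and each library had between 14116 and 14407 genes above 0. *Fgl1* itself was 158 to 1331 FPKM in the 8 WT mice and 13.2 to 90.0 in the 8 LKO mice, without overlap. Hepatocyte markers were all 8 present in every group, with a summed level of 52450 to 88400 FPKM in WT and 48550 to 70430 in LKO. In bulk liver RNA, fewer cells of a type and less RNA per cell cannot be told apart.

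The members covered a wide range of levels. By the WT median, *Dusp1* was highest at 24.3 FPKM, followed by *Ier2* (19.9), *Junb* (17.7), *Btg2* (5.8), *Jun* (5.72), *Egr1* (4.60), *Klf6* (1.79), *Fos* (1.1), *Ier3* (0.465) and *Fosb* (0.0900). The ranges of every pair of neighbours in this order overlapped across mice, but within a mouse some steps were steady. *Junb* exceeded *Btg2* in 16 of 16 mice, and *Fos* exceeded *Ier3*, and *Ier3* exceeded *Fosb*, in 15 of 16. *Egr1* exceeded *Klf6*, and *Klf6* exceeded *Fos*, in 13 of 16 mice, *Dusp1* exceeded *Ier2* in 12 and *Jun* exceeded *Egr1* in 11. *Ier2* was above *Junb*, and *Btg2* above *Jun*, in only 7 of 16, so the order of these 2 pairs was not settled.

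*Fos* encodes a subunit of the AP-1 transcription factor that can bind DNA only with a JUN partner. In WT, *Fos* was lowest at 0.62 FPKM, had a median of 1.1 and reached 6.62, and in LKO the lowest, median and highest values were 0.28, 1.05 and 4.33. The high values came from 3 mice, WT 7 (6.62), LKO 1 (4.33) and WT 4 (3.85), while the other 13 mice lay at or below 1.5. Thus the genotypes overlapped almost entirely, with 7 of 8 LKO mice inside the WT range. The log2 fold change of LKO over WT was -0.24 ± 0.33 (SE, n = 8 per genotype; limma adjusted p = 0.868).

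*Fosb*, a close relative of *Fos*, was near the lower limit of the table. It ranged from 0 to 0.62 FPKM in WT with a median of 0.09, and from 0.03 to 0.25 in LKO with a median of 0.07. WT 4 was highest at 0.62, WT 1 and LKO 1 followed at 0.28 and 0.25, and WT 8 was listed at 0. All 8 LKO mice lay in the WT range, and the difference on the log2(FPKM + 1) scale was -0.06 ± 0.08 (SE; limma adjusted p = 0.883).

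*Jun* encodes the founding JUN subunit of AP-1. It was 3.54 to 10.7 FPKM in WT, median 5.72, and 2.48 to 9.98 in LKO, median 7.26. The highest mice were WT 1 (10.7) and LKO 3 (9.98) and the lowest were LKO 6 (2.48) and WT 3 (3.54), so both genotypes stood at both ends. Its log2 fold change was 0.15 ± 0.22 (SE; limma adjusted p = 0.879).

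*Junb* encodes a JUN relative. It ranged from 6.14 to 71.6 FPKM in WT with a median of 17.7, and from 6.97 to 39.6 in LKO with a median of 17.3. WT 7 was highest at 71.6, and LKO 1 (39.6), LKO 3 (36.9) and WT 5 (35.5) came next, whereas WT 4, high for *Fos*, was at 18.3. All 8 LKO values fell inside the WT range. The log2 fold change was -0.05 ± 0.44 (SE; limma adjusted p = 0.982), with a 95% interval of -0.98 to 0.89.

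*Egr1*, the gene of a zinc finger factor that binds GC-rich sites, varied most. In WT the lowest, median and highest values were 1.58, 4.60 and 96.8 FPKM, and in LKO they were 1.13, 2.90 and 66.2. Egr1 mRNA was 96.8 FPKM in WT 7, 66.2 in LKO 1, 42.0 in WT 4 and 25.7 in LKO 3, whereas the other 12 mice lay between 1.13 and 7.26. Each genotype thus had 2 livers above 10 FPKM and 6 below, and the highest of all mice was 85.6-fold above the lowest. The log2 fold change was -0.38 ± 0.82 (SE; limma adjusted p = 0.925), and its 95% interval ran from -2.11 to 1.35, the widest of the 10 members.

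*Ier2* and *Ier3* are early response genes of different families, of which IER2 is a nuclear protein and IER3 acts in cell survival. *Ier2* was 11.6 to 39.6 FPKM in WT, median 19.9, and 8.94 to 30.0 in LKO, median 13.7. Its 4 highest values belonged to WT 7 (39.6), LKO 1 (30.0), WT 4 (27.5) and LKO 3 (25.4), the same 4 mice that led *Egr1*. Its log2 fold change of -0.33 ± 0.26 (SE; limma adjusted p = 0.775) had the smallest p of the 10 members, and 6 of 8 LKO mice lay within the WT range. *Ier3* was low and even, from 0.29 to 0.69 FPKM in WT and from 0.27 to 0.77 in LKO, with a difference of 0.01 ± 0.07 on the log2(FPKM + 1) scale (SE; limma adjusted p = 0.980).

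*Btg2*, which encodes an antiproliferative protein that recruits the deadenylase complex to mRNA, ranged from 3.30 to 11.9 FPKM in WT with a median of 5.8 and from 2.10 to 11.3 in LKO with a median of 6.66. WT 7 (11.9), LKO 1 (11.3), LKO 3 (9.99) and WT 4 (8.33) were again the 4 highest. LKO 6 was lowest at 2.10, as it was for *Egr1*, *Fos* and *Jun*. The log2 fold change was 0.05 ± 0.27 (SE; limma adjusted p = 0.970).

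*Dusp1* encodes a phosphatase that switches off MAP kinases and is also a known target of glucocorticoids. It was 4.82 to 47.0 FPKM in WT, median 24.3, and 7.30 to 50.8 in LKO, median 26.4. Unlike the genes above, *Dusp1* was lowest in WT 7 (4.82) and low in LKO 6 (7.30) and LKO 1 (7.95), yet highest in LKO 3 (50.8). The log2 fold change was 0.04 ± 0.42 (SE; limma adjusted p = 0.984). *Klf6*, the gene of a Krüppel-like factor, was the most even member relative to its level, at 1.31 to 2.53 FPKM in WT and 1.48 to 2.24 in LKO, with a log2 fold change of 0.05 ± 0.08 (SE; limma adjusted p = 0.893).

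**Figure D1:**
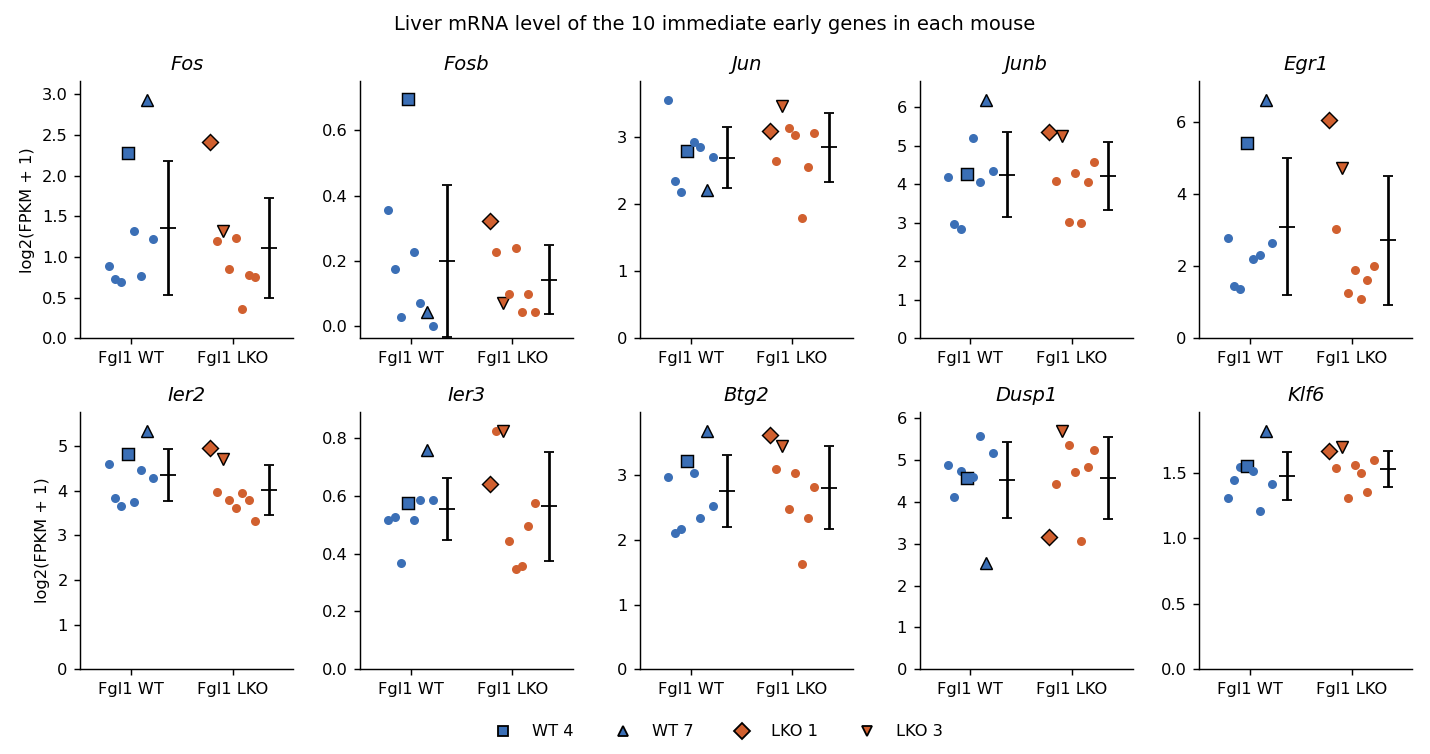
Level of the 10 members on the log2(FPKM + 1) scale (vertical axis) in 8 Fgl1 WT and 8 Fgl1 LKO livers (horizontal axis), 1 point per mouse, with the mean and SD of each genotype in black. The 4 outlined symbols are the mice above 10 FPKM for Egr1 (WT 4, WT 7, LKO 1 and LKO 3), which stand at the top for Egr1, Ier2 and Btg2 while WT 7 and LKO 1 stand near the bottom for Dusp1.

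Across the comparison of genotypes, then, no member passed an adjusted p of 0.05 in the limma fit over 12770 genes, against 0% of all genes. The deleted gene *Fgl1* did not pass either, although its FPKM did not overlap between genotypes. The lack of a call therefore does not show that the members were equal between genotypes. At an unadjusted p under 0.05 the count was 0 of 10 members, against 895 genes or 7.01% of those tested. An exact permutation test over all 12870 splits of the 16 mice gave two-sided p-values from 0.256 (*Ier2*) to 0.944 (*Dusp1*) for single members (n = 8 per genotype). By direction, 5 members were lower and 5 higher in LKO, and 44.2% of all genes were lower. The median log2 fold change was -0.02 for the members and 0.01 for all genes.

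Mouse numbers in the labels fall into 5 runs of consecutive numbers, and the genotypes were spread unevenly over them. The run 36 to 38 held WT 1 to WT 3 only, and mouse 55 (LKO 3) stood alone. Whether a run marks a litter, a day or a cage is not given. *Egr1* was 5.92, 1.74 and 1.58 FPKM in the first run. In the run 48 to 50, *Egr1* was 42.0 FPKM in WT 4 against 66.2 and 7.26 in LKO 1 and LKO 2. In the run 60 to 64 it was 3.59 and 3.95 in the WT mice against 1.40, 2.74 and 1.13 in the LKO mice, and in the run 69 to 72 it was 96.8 and 5.24 against 2.09 and 3.05. Within the last 2 runs, therefore, the 4 WT values lay above the 5 LKO values of their own run, whereas in the run 48 to 50 they did not separate.

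With the run as a covariate, which leaves the genotype difference to the 12 mice of the 3 runs that held both genotypes, 3 of 10 members had an unadjusted p under 0.05, against 8.17% of all genes in that fit. *Egr1* had a log2 fold change of -1.53 ± 0.65 (SE; limma unadjusted p = 0.0349, adjusted p = 0.582), *Fos* of -0.67 ± 0.30 (limma unadjusted p = 0.0431, adjusted p = 0.602) and *Ier2* of -0.66 ± 0.26 (limma unadjusted p = 0.0223, adjusted p = 0.558). None passed after adjustment over all genes. These 3 genes moved together across the 16 mice, so the count does not hold 3 separate results. Centred in each genotype, Pearson r was 0.93 for *Fos* and *Egr1*, 0.89 for *Egr1* and *Ier2*, and 0.76 for *Fos* and *Ier2*. The unadjusted count changed with single mice, as it was 0 of 10 without WT 7 or without LKO 8 and reached 4 without WT 4, WT 8 or LKO 1. The share of all genes under that p was not counted in these fits. Without WT 7, the log2 fold change of *Egr1* with the covariate was -0.84 ± 0.44 (SE; limma unadjusted p = 0.0817). Without LKO 8 it was -1.41 ± 0.71 (SE; limma unadjusted p = 0.0686). Leaving out the 3 mice of the first run gave -1.12 for *Egr1*, -0.59 for *Fos* and -0.52 for *Ier2*, with limma adjusted p-values of 0.843, 0.806 and 0.795.

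**Figure D2:**
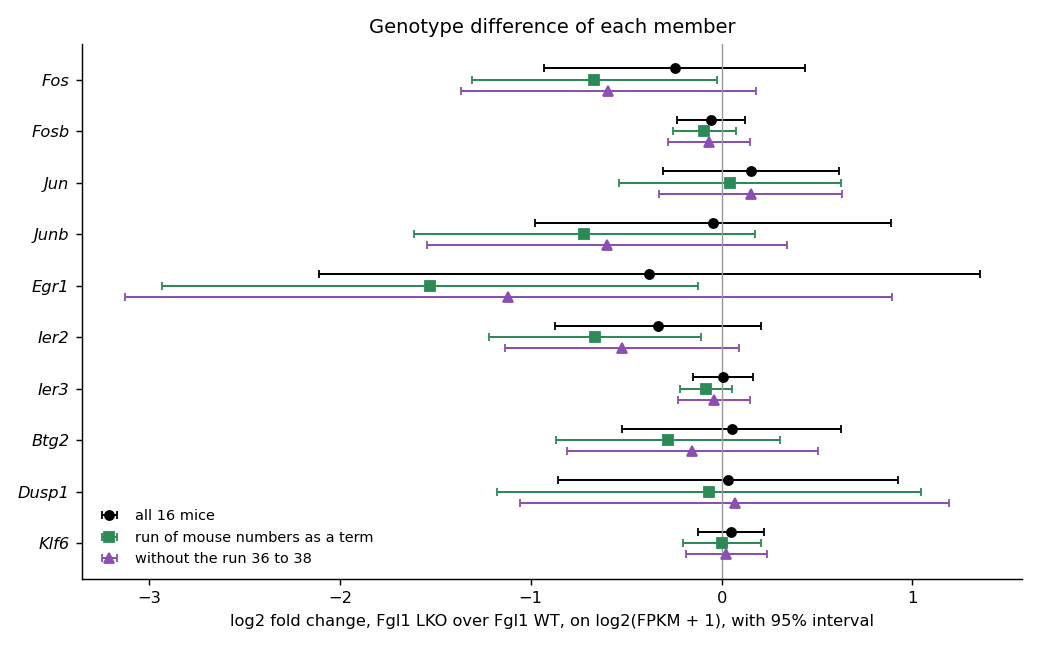
Log2 fold change of Fgl1 LKO over Fgl1 WT (horizontal axis, on log2(FPKM + 1), bars are 95% intervals) for each member (vertical axis) in 3 fits: all 16 mice, the mouse-number run as a covariate (in green), and the 13 mice outside the run 36 to 38. Intervals of all members include 0 with all 16 mice, and those of Fos, Egr1 and Ier2 lie below 0 with the covariate, before any adjustment for multiple testing.

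Most members varied widely between mice of 1 genotype. The SD within genotype on the log2(FPKM + 1) scale had a median of 0.59 over the members and of 0.17 over the 12770 genes tested. *Egr1*, at 1.85, ranked 10th from the highest of all genes, *Junb*, at 0.99, ranked 54th, and *Dusp1*, at 0.95, ranked 65th. *Fos* (0.73), *Btg2* (0.61), *Ier2* (0.57) and *Jun* (0.48) also lay above the 95th percentile, which put 7 of 10 members among the 639 most variable genes. The other 3 had ordinary spreads, at the 55.3rd (*Fosb*), 44.8th (*Klf6*) and 40.1st (*Ier3*) percentile. Relative to the limma trend at the same level, the SD of *Egr1* was 10.2 times the trend, that of *Junb* 5.99 times, that of *Dusp1* 5.8 times and that of *Fos* 4.53 times, while *Fosb* stood at 1.64 times, *Ier3* at 1.2 times and *Klf6* at 0.95 times. Spread on this scale is compressed for low genes, and with a pseudocount of 0.1 FPKM *Fosb* moved from the 55.3rd to the 96.4th percentile and *Ier3* from the 40.1st to the 77.8th.

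**Figure D3:**
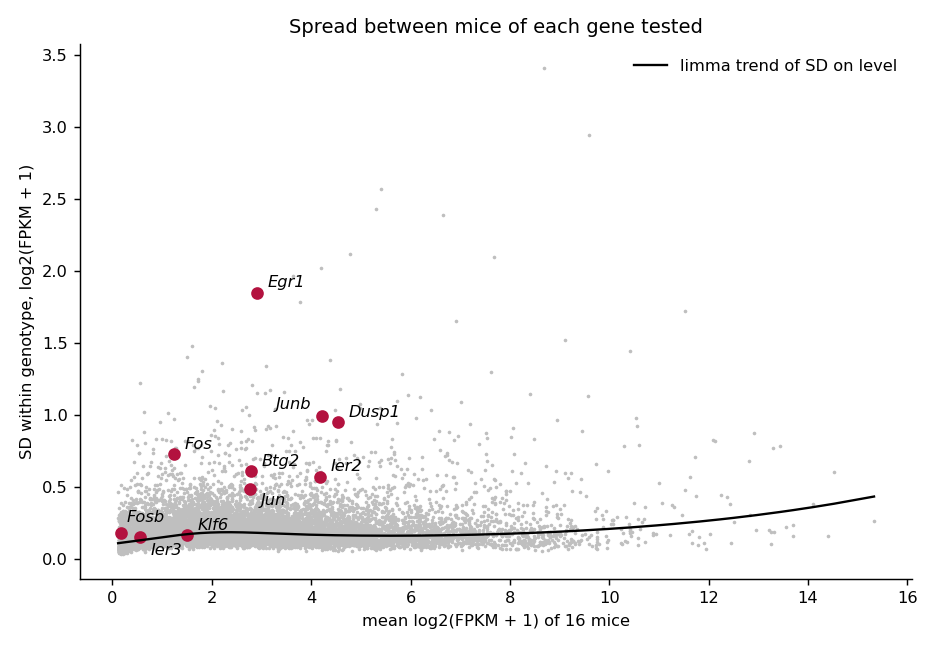
SD within genotype of log2(FPKM + 1) (vertical axis) against the mean log2(FPKM + 1) of 16 mice (horizontal axis) for the 12770 genes tested (grey) and the 10 members (red, named), with the limma trend as a line. Egr1 stands at 1.85, followed by Junb and Dusp1, and Klf6 and Ier3 lie near the trend at 0.95 and 1.2 times its value, with Fosb at 1.64 times.

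Most members were high or low in the same mice. Each member was centred on its genotype mean and divided by its SD, and the average of the 10 was taken as an index of each mouse. The index was highest in LKO 3 (0.954), LKO 1 (0.915), WT 7 (0.877) and WT 4 (0.778), followed at a distance by LKO 2 (0.225), and lowest in LKO 6 (-1.105). The 4 leading mice came from 3 different runs of mouse numbers, with LKO 1 and WT 4 in the same run. All correlations below describe the same 16 libraries, with values centred in each genotype, and carry no p.

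*Btg2* followed the other 9 members most closely (Spearman rho 0.959, Pearson r 0.948, n = 16), then *Egr1* (rho 0.918), *Fos* (0.832) and *Junb* (0.821). *Ier2* (0.647), *Ier3* (0.570) and *Klf6* (0.550) followed less closely, and *Jun* (0.424) and *Fosb* (0.340) weakly. Pair by pair, *Klf6* did not keep this likeness over the 12 mice with *Egr1* below 10 FPKM. Its rho there was -0.71 with *Ier2*, -0.45 with *Dusp1*, -0.2 with *Ier3* and *Jun*, and -0.13 with *Egr1*. With *Fosb*, *Fos*, *Btg2* and *Junb* the rho of *Klf6* ran from 0.025 to 0.23 in those mice. *Dusp1* did not follow the other members, with a rho of -0.159 and an r of -0.258. Of the 45 pairs of members, 36 had a rho above 0 and 8 above 0.7, with a median of 0.44. The closest pair was *Fos* and *Btg2* at 0.93.

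Among the 10 pairs of *Fos*, *Junb*, *Egr1*, *Btg2* and *Ier2*, rho ran from 0.45 to 0.93 and r from 0.61 to 0.93. Without the 2 mice farthest from the median of the first gene of the pair, r ran from 0.39 to 0.84. Over the 12 mice with *Egr1* below 10 FPKM, rho ran from -0.07 to 0.84, where *Fos* and *Btg2* kept 0.84, *Junb* and *Btg2* had 0.80, and *Junb* and *Ier2* had -0.07. *Dusp1* had a negative rho with 7 of the 9 other members, the lowest with *Klf6* (-0.39), and its highest was with *Jun* (0.55). Most of these negative values did not hold over the 12 mice with *Egr1* below 10 FPKM. There the rho of *Dusp1* was negative only with *Klf6* (-0.45) and *Fosb* (-0.35). It was 0.077 with *Fos*, 0.1 with *Btg2*, 0.18 with *Junb* and *Ier2*, 0.26 with *Ier3*, 0.31 with *Egr1* and 0.56 with *Jun*.

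**Figure D4:**
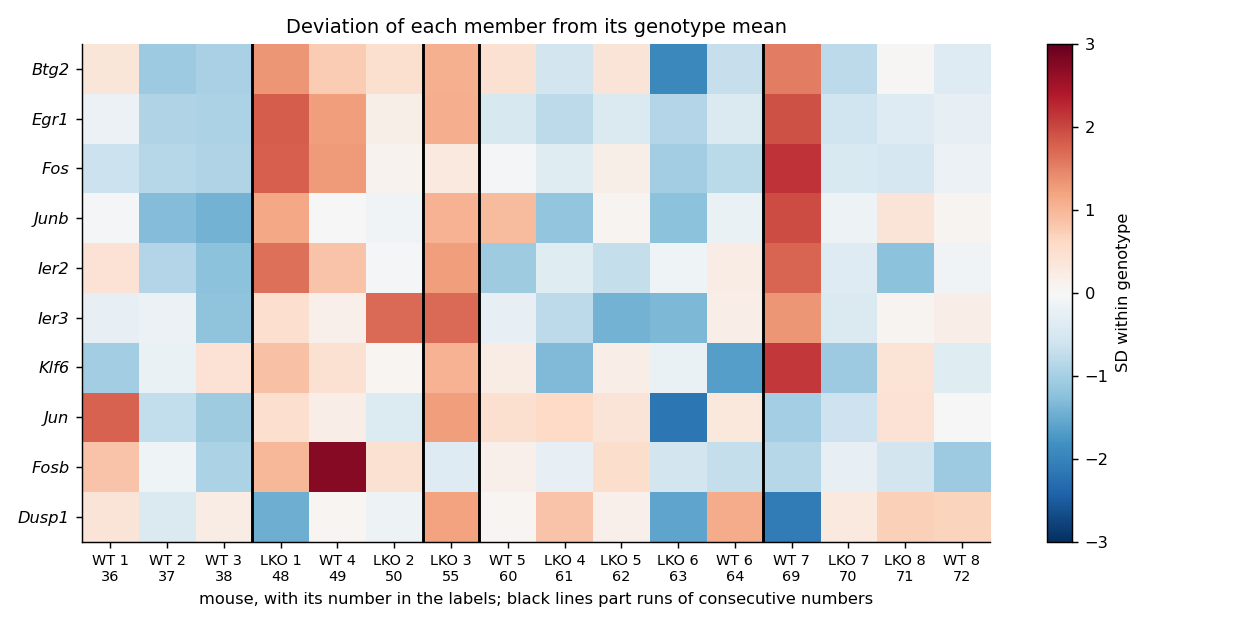
Deviation of each member (rows, ordered by how closely it followed the other members) from its genotype mean, in SD units, in each mouse (columns, by mouse number, with black lines between runs of consecutive numbers). Red columns mark LKO 1, WT 4, LKO 3 and WT 7, and the bottom row, Dusp1, is blue in LKO 1 and WT 7 and red in LKO 3.

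The other genes with the nearest pattern were searched for among 10030 non-members with a mean of at least 1 FPKM. The median rho with the index was -0.032, and 34 genes (0.339%) exceeded 0.7. The 10 highest were *Siglece* (0.856), *Irf8* (0.832), *Il2rg* (0.829), *Cybb* (0.821), *Mbtps1* (0.809), *Wfdc17* (0.806), *Ptgs1* (0.800), *Sirt6* (0.791), *Lrrc25* (0.788) and *Adgre1* (0.779). *Siglece* encodes a sialic acid receptor of myeloid cells, *Irf8* a transcription factor of myeloid cells, *Il2rg* the shared chain of several cytokine receptors, *Cybb* a subunit of the phagocyte oxidase and *Adgre1* the macrophage antigen F4/80, whereas *Mbtps1* encodes a protease of the secretory pathway and *Sirt6* a nuclear deacylase. Pearson r for these 10 was 0.71 to 0.85, and over the 12 mice with *Egr1* below 10 FPKM rho was 0.57 to 0.85. With *Fosb*, *Jun* and *Dusp1* left out of the index, 6 of the 10 remained among the 10 highest.

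*Siglece* ranged from 0.89 to 2.64 FPKM in WT and from 1.23 to 3.15 in LKO. It was 3.15 in LKO 8, 3.01 in LKO 3, 2.75 in LKO 1, 2.64 in WT 4 and 2.57 in both WT 7 and LKO 2, so the 6 highest mice were the 4 that led the index together with LKO 8 and LKO 2. *Adgre1* was highest in LKO 3 (7.22), LKO 1 (7.14), LKO 8 (6.63) and WT 4 (5.60), and lowest in WT 3 (2.71). *Mbtps1* moved within a narrow range, from 17.6 to 21.4 FPKM.

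Markers of Kupffer cells, the resident macrophages of the liver, moved with the members as a whole list. All 7 (*Clec4f*, *Vsig4*, *Timd4*, *Cd5l*, *Adgre1*, *Marco* and *Csf1r*) were above 0 in every mouse, and all 7 had a positive rho with the index, from 0.44 to 0.78. Over the 12 mice with *Egr1* below 10 FPKM these values were 0.20 to 0.58. The summed level of the 7 was 59.8 to 125 FPKM in WT, median 95.1, and 74.9 to 157 in LKO, median 112. It was 137 in LKO 3, 130 in LKO 1, 125 in WT 7 and 121 in WT 4, but highest in LKO 8 (157), whose index was -0.061. Between genotypes 0 of 7 passed the threshold, and 2 of 7 had an unadjusted p under 0.05, against 7.01% of all genes. These were *Adgre1* (log2 fold change 0.39 ± 0.16 SE; limma unadjusted p = 0.0272, adjusted p = 0.696) and *Vsig4* (0.37 ± 0.16; limma unadjusted p = 0.0310, adjusted p = 0.696). WT 1 to WT 3, of the run without LKO mice, had low sums of 78.2, 59.8 and 72.7 FPKM. The part of the run in the genotype difference of these markers was not tested. The part of Kupffer cells in the pattern of the members was not tested.

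**Figure D5:**
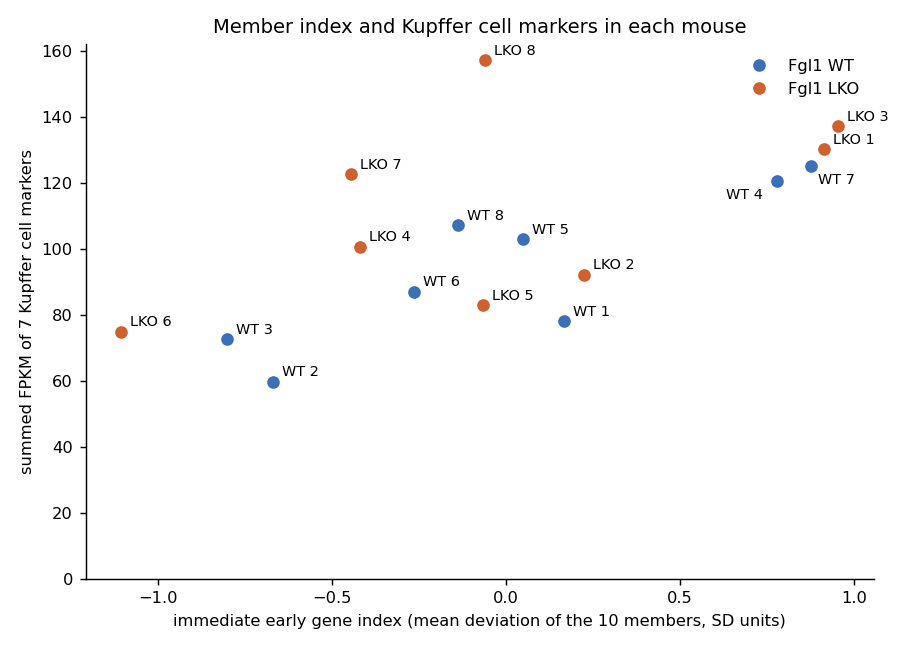
Summed FPKM of 7 Kupffer cell markers (vertical axis) against the index of the 10 members in SD units (horizontal axis), 1 named point per mouse, blue for Fgl1 WT and orange for Fgl1 LKO. LKO 3, LKO 1, WT 7 and WT 4 stand at the right with sums of 137, 130, 125 and 121, and LKO 8 has the highest sum, 157, at an index near 0.

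Other marker lists were set beside the index in the same way. The 5 neutrophil markers summed to 1.00 to 35.1 FPKM in WT and 3.34 to 28.1 in LKO. This sum was 28.1 in LKO 1, 24.4 in WT 7 and 21.95 in WT 4 but 4.16 in LKO 3, and had a rho of 0.54 with the index. Both markers with a mean of at least 1 FPKM had a positive rho (0.35 and 0.57, with 0.36 and 0.39 over the 12 mice). Those with a lower mean that passed the filter had 0.54 and 0.60 (0.52 and 0.41 over the 12 mice). The 7 sinusoidal endothelial markers summed to 40.0 to 94.8 FPKM in WT and 29.9 to 115 in LKO (rho 0.20), and all 7 had a positive rho with the index, from 0.15 to 0.31, but 2 of 7 did over the 12 mice with *Egr1* below 10 FPKM. The 7 stellate markers summed to 56.5 to 97.9 and 47.3 to 117 (rho 0.19), with a positive rho for 6 of 7 and, over the 12 mice, for 1 of 7. The 5 cholangiocyte markers summed to 24.7 to 56.1 and 28.9 to 262 (rho -0.24), the 5 erythroid markers to 390 to 946 and 368 to 1108 (rho -0.17), and the 5 lymphocyte markers to at most 1.56 in any mouse. Of the 5 pancreas acinar genes 4 were at 0 in all mice, and adipocyte markers summed to at most 0.06. The sum of the hepatocyte markers had a rho of -0.056 with the index. Their part in the pattern of the members was not tested.

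Acute-phase, heat shock and clock genes were set beside the index because inflammation, temperature and time of day are known to move immediate early genes. The 11 acute-phase genes summed to 4105 to 54030 FPKM in WT and 3745 to 29110 in LKO, and mice with a high index stood at both ends, with the highest sum of all in WT 7 (54025) and the lowest in LKO 3 (3745). *Saa1*, an acute-phase apolipoprotein, was 16268 FPKM in WT 7, 1827 in LKO 1, 124 in WT 4 and 68.4 in LKO 3. The 10 heat shock genes summed to 1471 FPKM in LKO 1, 1239 in WT 7, 1230 in WT 4 and 904 in LKO 3, within a range of 672 to 1564. The 12 clock genes summed to 133 in LKO 3, the highest of all mice, and to 63.3 in LKO 1, the lowest among LKO mice. The rho of these sums with the index was 0.14, 0.34 and -0.079, and the hour of sampling is not given. Gene by gene, 10 of 11 acute-phase genes had a positive rho with the index (-0.026 to 0.43, median 0.14), and over the 12 mice with *Egr1* below 10 FPKM 11 of 11 did (0.27 to 0.60, median 0.38), close to the median of 0.39 for the Kupffer cell markers in those mice. Of the 9 heat shock genes whose mean reached 1 FPKM, 7 had a positive rho (median 0.25) and over the 12 mice 8 did (median 0.34). Of 10 such clock genes, 3 did, and 1 over the 12 mice. The part of these genes in the pattern of the members was not tested. Between genotypes 0 of the 10, 0 of the 11 and 0 of the 12 passed the threshold in limma, and 2 of the 10 heat shock genes and none of the others had an unadjusted p under 0.05, against 7.01% of all genes. The smallest p-values were those of the chaperone genes *Hspe1* (log2 fold change 0.33 ± 0.11 SE; limma adjusted p = 0.696) and *Hspb1* (0.81 ± 0.35; limma adjusted p = 0.696), of *Cd14* (0.26 ± 0.15) and *Steap4* (0.71 ± 0.57) among acute-phase genes, and of *Cry1* (-0.32 ± 0.21) and *Npas2* (-0.22 ± 0.17) among clock genes.

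Related early genes were taken from fixed lists of partners, family members and feedback regulators. Of the 72 that passed the filter, 0 passed an adjusted p of 0.05, and 2 higher and 2 lower genes had an unadjusted p under 0.05, against 7.01% of all genes in either direction. Their median log2 fold change was 0.02. Of the 10 AP-1 partners, *Mafk*, a small MAF protein, had the smallest p (log2 fold change 0.31 ± 0.10 SE; limma unadjusted p = 0.00815, adjusted p = 0.696), followed by *Jund* (0.26 ± 0.13; limma adjusted p = 0.696), which at a median of 20.2 FPKM over the 16 mice was more abundant than *Jun*. Among the 3 EGR and NR4A genes that passed the filter, the orphan receptor gene *Nr4a1* had -0.26 ± 0.19 and the EGR corepressor gene *Nab2* -0.20 ± 0.21, with limma adjusted p-values of 0.767 and 0.829.

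Of the 18 KLF and other early transcription factors, *Nfil3* had a log2 fold change of 0.31 ± 0.14 (SE; limma adjusted p = 0.696) and *Cebpb* of 0.28 ± 0.23 (limma adjusted p = 0.785). Of the 4 relatives of *Btg2*, *Btg1* had -0.33 ± 0.17 and *Tob1* -0.25 ± 0.18 (limma adjusted p = 0.706 and 0.753). Of the 14 MAP kinase phosphatases and ERK feedback genes, *Dusp4* had -0.19 ± 0.08 and *Dusp5* 0.14 ± 0.08 (limma adjusted p = 0.696 and 0.707). Among the 23 RNA decay and other early-induced genes, *Phlda1* had the largest fitted difference of the genes named from these lists, -0.95 ± 0.38 (SE; limma unadjusted p = 0.0216, adjusted p = 0.696), with 7.92 to 75.2 FPKM in WT and 5.47 to 20.3 in LKO, and *Zfp36l1* had -0.24 ± 0.15 (limma adjusted p = 0.722).

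Among all genes searched, the median rho with the index was -0.032, and the shares with a positive rho or one above 0.5 were not counted. With the index, 41 of 57 related early genes that had a mean of at least 1 FPKM showed a positive rho, and 4 exceeded 0.5. These 4, named after their values were seen, were *Trib1* and *Rhob* (0.63 each), *Zfp36* (0.59), whose protein destabilises AU-rich transcripts, and the chemokine gene *Cxcl1* (0.55). Over the 12 mice with *Egr1* below 10 FPKM, rho was 0.68 for *Trib1*, 0.65 for *Cxcl1*, 0.40 for *Rhob* and 0.15 for *Zfp36*. *Zfp36* was 106 FPKM in WT 7, 89.3 in LKO 3 and 68.8 in LKO 1, against 28.6 to 59.0 in the other 13 mice. Among those 13 was WT 4, at 52.3, although its index was high. In spread, 21 of the 72 lay above the 95th percentile of all genes.

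The machinery upstream of the members comprised 24 MAP kinase pathway genes and 12 SRF, TCF and CREB factors. Of these 36 genes 0 passed the threshold between genotypes, 4 had an unadjusted p under 0.05, all higher in LKO, against 7.01% of all genes in either direction, and the median log2 fold change was 0.06. *Mrtfb* (0.24 ± 0.09) and *Mrtfa* (0.30 ± 0.12), coactivators of the serum response factor, and the kinase gene *Map2k3* (0.33 ± 0.15) had adjusted p-values from limma of 0.696, and *Rps6ka1* had -0.24 ± 0.12. With the index, 13 of 35 showed a positive rho and 0 exceeded 0.5, and 2 of 36 lay above the 95th percentile of spread. The mRNA levels of these genes say nothing of their phosphorylation or activity.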

How the data were processed

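Liver RNA was extracted with phenol and chloroform, stranded polyA libraries were sequenced as paired-end reads on the DNBSEQ platform, and reads were aligned by the authors to mm39 with HISAT and to reference genes with Bowtie2. Versions, the counting step and the annotation are not given in the sources used here. The authors deposited 1 table of FPKM for 17003 genes and 16 mice, rounded to 2 decimals and written with decimal commas, which were read as points. Reads per library are unknown, so precision comes only from the spread between mice. The study's methods and its figure legend differ in the number of mice sequenced per genotype, and all 16 mice of the table were used.

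Values were tested as log2(FPKM + 1) for 12770 genes, those whose mean reached 0.1 FPKM (10 of 10 members; 864 genes were at 0 in all mice), by limma 3.58.1 (R 4.3.3) with a mean trend, two-sided, and Benjamini-Hochberg adjustment over all genes, with a threshold of 0.05. Fold changes on this scale understate those of low genes. Single members were also tested by an exact permutation test (scipy 1.17.1). The limma fit was tested on simulated data first. Members, gene lists and marker lists were chosen with earlier results of these data known. All 10 members are named, plus genes of each list past the threshold or otherwise its 2 smallest p-values (cell type markers other than those of Kupffer cells are given as sums, and *Saa1* was chosen after its values were seen), and the 10 genes with the highest rho with the index. *Egr4* and *Lep* were not matched by symbol. Alternatives were a pseudocount of 0.1, no filter, a mean of at least 1 FPKM, median-ratio scaling, a replicate block, a covariate for the mouse-number run, dropping the first run or each mouse in turn, and an adjusted p of 0.1. Correlations over 12 mice, Pearson r, the smaller index and leaving out mice under the run covariate were added after the data were seen. Same-numbered mice correlated with r from -0.161 to 0.446 and in 3 of 8 pairs above 0.1, and were not treated as pairs in the main fit. Mice of different numbers were not set beside them, so this check cannot settle whether the numbers pair the mice. Coordinates, exons and promoter sequence come from the GRCm39 genome with GENCODE vM39, matched by symbol and using each gene's canonical transcript. Protein sequences were not used here.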

Additional observations from a re-analysis of the deposited data

Results flagged for a closer look

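In the 20 groups formed by 10 members and 2 genotypes, 1 value stood apart from the other 7 mice of its genotype by Dixon's gap test on log2(FPKM + 1). *Fos* in LKO 1 was 4.33 FPKM, and the next highest LKO mouse was at 1.49, a gap of 0.534 of the group's range, just past the 95% limit for 8 values. Chance alone marks about 1.0 of 20 such groups. The nearest others under the limit were *Dusp1* in WT 7, lowest at 4.82 FPKM with 16.3 next (0.517), and *Fosb* in WT 4, highest at 0.62 with 0.28 next (0.488).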

How the results depend on the processing

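No member passed an adjusted p of 0.05 under any of the 23 alternatives tried, with adjusted p-values of the members from 0.558 to 0.999, and the count of genes past the threshold was 0 in all 16 fits without 1 mouse. The fits that left out a mouse under the run covariate are not among the 23. No member passed there either, and the lowest limma adjusted p was 0.335, for *Ier2* without WT 5. Over all genes the count was 1 with the replicate block, 1 with the mouse-number run as a covariate, 1 when the run 36 to 38 was dropped and 1 at an adjusted p under 0.1, in each case *Fgl1*. The replicate block gave 0 members and changed no other call. Its numbers are not known to pair the mice. Of 228 log2 fold changes of members under alternatives, 201 kept their sign. With that covariate it turned for *Ier3* (-0.0814), *Btg2* (-0.28) and *Dusp1* (-0.0670), on dropping the run 36 to 38 for *Ier3* (-0.0406) and *Btg2* (-0.15), and with a pseudocount of 0.1 for *Ier3* (-0.0038); the cause was not tested. Leaving out 1 mouse, the sign turned in some fits for *Junb* (-0.25 to 0.23), *Egr1* (-0.86 to 0.12), *Ier3* (-0.0276 to 0.0408), *Btg2* (-0.0627 to 0.22), *Dusp1* (-0.25 to 0.25) and *Fosb* (-0.0858 to 0.0136), with *Egr1* above 0 only without WT 7. The SD between mice of *Egr1* was 1.61 to 1.91 in these fits. A pseudocount of 0.1 raised the SD of *Fosb* from 0.18 to 0.79 and of *Ier3* from 0.15 to 0.40. Rounding to 2 decimals and unknown depth limit *Fosb* and *Ier3*.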
